A study of Mus musculus with 8 samples.

Results

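The SLC25 mitochondrial carriers were followed across liver samples of Sirt1-null mice and of wild type mice of 3 ages. Members were the genes whose symbol was Slc25a followed by a number, read by a probe set that carried no other gene. Slc25a20, the carnitine-acylcarnitine carrier, was left out, and genes with other symbols, whatever their family, were not counted as members. The rule found 43 of the 18193 genes that had a probe set of their own, and these 43 were read by 91 probe sets. For each gene the probe set with the highest log2 signal, averaged over the 8 arrays, was used. The choice used no difference between groups.

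Liver RNA was hybridised to 8 Affymetrix whole-genome mouse arrays, which use 1 colour and read most genes with 1 or several probe sets. The groups were wild type (WT) mice of 3 months, 12 months and 19 months and sirt1 KO (MT) mice of 3 months, with 2 arrays each. All 4 groups shared the mixed 129/FVB/Black Swiss background, a 12-h light environment and sacrifice in the morning. Sirt1 encodes an NAD-dependent deacetylase, and the MT mice lacked it in every tissue from conception, and few such mice live to adulthood. The study names as many samples per condition as there are arrays in its methods and more mice per group elsewhere in its text. Whether an array held 1 animal or several is therefore not known here, and p-values measure no more than the spread between arrays, part of which may be technical.

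Before any carrier was read, the arrays were checked against their labels. The 1 probe set of Sirt1 gave 589 and 539 in WT mice of 3 months and 615 and 713 in MT mice (log2 difference 0.23 ± 0.20, SE, limma adjusted p = 0.674). It is not known here whether that probe set falls in the deleted part of the gene, so its signal is no check of genotype. Xist lay at or above the 95.2nd percentile and 3 Y-linked genes at or below the 43.1st on all 8 arrays, whereas the methods describe the mutant mice as male. All 7 measured hepatocyte markers lay above the array median on every array. Arrays correlated at 0.913 to 0.927 within groups and at 0.909 to 0.922 between groups.

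Most SLC25 carriers sit in the inner mitochondrial membrane and move metabolites between the cytosol and the matrix, mainly by exchange. In hepatocytes they link the urea cycle, gluconeogenesis, lipid synthesis, heme and iron-sulfur cluster assembly and ATP supply to the matrix enzymes. They are made in the cytosol without a cleaved presequence in most cases, and the TIM22 complex inserts them into the membrane. NAD, the cosubstrate of Sirt1 and other sirtuins, enters the matrix through Slc25a51.

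Of the 43 members, 36 lay in the upper 50% of mean log2 signal and were tested, which is 83.7% of the members. The 7 that were not tested were Slc25a2, Slc25a14, Slc25a18, Slc25a31, Slc25a41, Slc25a53 and Slc25a54. Of these, 5 lay below the array median on all 8 arrays. Among them were Slc25a31, an ATP/ADP carrier known from testis, with signals of 0.922 to 51.7, and Slc25a2, an ornithine carrier, with 30.4 to 48.2. Bulk liver was measured, so fewer cells of a type and less RNA per cell cannot be told apart.

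Promoter sequences were searched on both strands for 10 motifs. Of these the E-box, which the circadian activators CLOCK and BMAL1 bind, was singled out after the counts were seen, so no test is attached to it. RefSeq sequences from 250 bases before to 50 bases after the start (build GRCm38.p6) were held for 33 of the 43 members. The letters CACGTG, which read the same on both strands, were found in 7 of these 33 (21.2%), beside 7.15% of all 32851 promoters and 10.2% of 14452 genes on the array. The 5 of these 7 that were tested are printed because their letters can be set beside their signals. They are Slc25a1, the citrate carrier, at chr16:17928410-17928469 on the minus strand; Slc25a13, the aspartate-glutamate carrier of liver, at chr6:6217266-6217325 (minus); Slc25a15, the ornithine carrier, at chr8:22398322-22398381 (minus); Slc25a33, a pyrimidine nucleotide carrier, at chr4:149774268-149774327 (minus); and Slc25a36, its relative, at chr9:97111196-97111255 (minus). The 60 bases of each lie upstream of the start, 5′ to 3′ along the gene, and capitals mark the E-box.
Slc25a1: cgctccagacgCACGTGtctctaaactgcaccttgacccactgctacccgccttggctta
Slc25a13: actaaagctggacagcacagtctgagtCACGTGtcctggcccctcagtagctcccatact
Slc25a15: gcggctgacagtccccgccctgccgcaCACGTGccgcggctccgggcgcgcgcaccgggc
Slc25a33: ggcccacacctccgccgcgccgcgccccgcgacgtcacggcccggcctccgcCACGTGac
Slc25a36: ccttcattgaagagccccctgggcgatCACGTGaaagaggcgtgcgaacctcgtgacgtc

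Members and array genes were counted once per gene, with a hit in any of its promoters, and all promoters singly. Only the share of array genes is therefore a like measure for the members. The GC box GGGGCGGGG was in 18.2% of members, below the 20.3% of genes on the array, and in 11.4% of all promoters. CCAAT was in 54.5% of members, beside 37.4% of all promoters and 42.0% of array genes. The NRF1 core GCATGCGC was in 6.06%, beside 2.71% of all and 4.68% of array genes. The longer NRF1 site, which contains that core, was in none of the 33, beside 0.971% of all promoters and 1.75% of array genes. The D-box TTATGTAA, its variant TTACGTAA, the YY1 site, the ERR letters TCAAGGTCA and the HNF4 letters CAAAGTCCA were in none of the 33 either, beside 0.119% to 0.938% of all promoters and 0.18% to 1.25% of array genes. The 5 tested members with an E-box did not share a direction. In MT mice their log2 differences were -0.27 for Slc25a1, 0.03 for Slc25a13, 0.14 for Slc25a15, -0.49 for Slc25a33 and 0.08 for Slc25a36, and none of them passed the test.

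Young MT mice were set against WT mice of the same age to ask which carriers depend on Sirt1. No carrier passed at an adjusted p under 0.05 by limma (0 of 36), beside 0.515% of all 22519 tested probe sets. At an unadjusted p under 0.05 there were 8 carriers (22.2%) beside 13.5% of all probe sets. The carriers are 1 probe set per gene, chosen for high signal, whereas the 22519 hold several of many genes. Of the 22519, 8996 had a mean log2 signal under 8, beside 4 of the 36 carriers. Shares of carriers and of all probe sets, here and below, are therefore not from like sets. Both MT arrays lay above both WT arrays for 8 carriers and below them for 9, which is 17 of 36 (47.2%) beside 45.7% of all probe sets (24.0% above and 21.7% below). Differences ran from -1.33 to 0.84 on the log2 scale with a median of 0.08, beside 0.02 over all probe sets, and 22 of 36 were above 0, beside 52.3% of all. The median 95% interval, which is not adjusted for the number of probe sets, reached 0.52 to either side. With 2 arrays a group, differences of that size, and larger ones at the adjusted threshold, could be missed for a typical carrier.

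**Figure D1:**
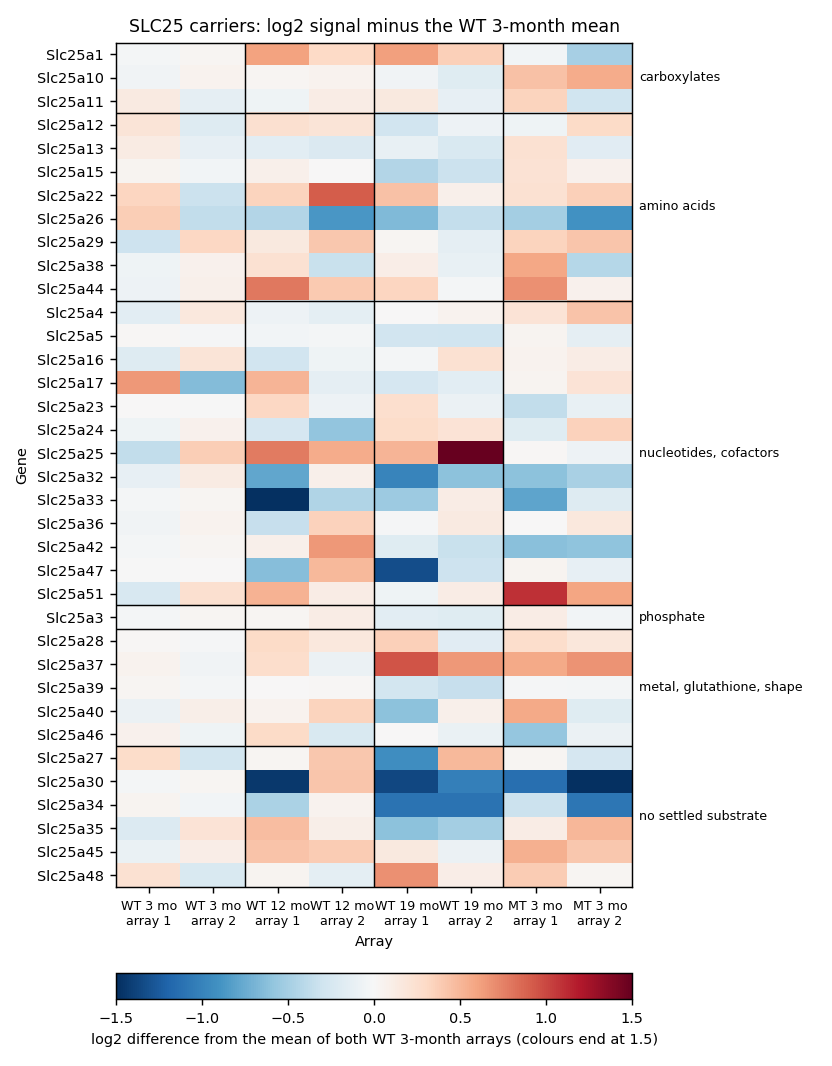
Each tested carrier (vertical axis, grouped by what it is known to carry) on each of the 8 arrays (horizontal axis), coloured by its log2 signal minus the mean of both WT 3-month arrays, with colours ending at 1.5. Slc25a30 has the most negative difference of the carriers in the means of the MT and of the 19-month arrays, and its 12-month arrays part.

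Carriers of cofactors held both the most positive difference and the only negative one among the 5 carriers of smallest p. Slc25a51, the mitochondrial NAD carrier, gave 1699 and 2361 in WT mice and 4273 and 3007 in MT mice. Both MT arrays lay above both WT arrays, with a log2 difference of 0.84 ± 0.23 (SE over 2 against 2 arrays, limma adjusted p = 0.144). All 3 of its tested probe sets had differences above 0, from 0.47 to 0.84, with a median of 0.50. Slc25a42, which brings coenzyme A into the matrix, gave 1096 and 1134 in WT mice and 721 and 734 in MT mice. Here the MT pair lay below the WT pair, by a log2 difference of -0.62 ± 0.20 (limma adjusted p = 0.214). Both of its probe sets were below 0, at -0.62 and -0.78. Slc25a26, the S-adenosylmethionine carrier placed with the amino acid carriers, had -0.71 (limma adjusted p = 0.338), and both of its probe sets were below 0.

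Among carriers of carboxylates, Slc25a10, which exchanges malate or succinate for phosphate, gave 2100 and 2246 in WT mice and 2943 and 3204 in MT mice. Its arrays did not overlap, and it had the smallest p of the carriers in this comparison (log2 difference 0.50 ± 0.13, SE, limma adjusted p = 0.137). Its second probe set was also above 0, at 0.37. Slc25a1 gave -0.27 (limma adjusted p = 0.579), and Slc25a11, the oxoglutarate-malate carrier, 0.02 (limma adjusted p = 0.984). The 3 members of this class had differences of both signs.

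Slc25a37, mitoferrin-1, which imports iron for heme synthesis, gave 533 and 492 in WT mice and 759 and 817 in MT mice. The log2 difference was 0.62 ± 0.19 (SE over 2 against 2 arrays, limma adjusted p = 0.186), with both MT arrays above both WT arrays. Slc25a28, mitoferrin-2, gave 0.21 (limma adjusted p = 0.704). Mitoferrin-1 is known from red cell precursors, so erythroid markers are set beside it. Of 8 listed, 4 had a probe set, and their summed signal was 226 and 198 in WT mice of 3 months, 394 and 259 at 12 months, 421 and 298 at 19 months and 331 and 283 in MT mice. Only Alas2, the erythroid enzyme that starts heme synthesis, was bright enough to be tested, with a difference in MT mice of 0.67 (limma adjusted p = 0.359). It made up most of each sum, and Epb42 and Hba-a1 lay below the array median on all arrays. The dim markers did not share a direction. Hba-a1 gave 41.2 and 21.6 in WT mice of 3 months and 7.24 and 10.2 in MT mice. Slc4a1 gave 28.4 and 44.8, then 63.1 and 73.9, and Epb42 overlapped. The part of these cells in the Slc25a37 signal was not tested.

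Slc25a45, without a substrate assigned here, was the remaining carrier among the 5 of smallest p. It gave 635 and 729 in WT mice and 982 and 901 in MT mice, which is a log2 difference of 0.47 ± 0.16 (SE, limma adjusted p = 0.258). Of the 5 carriers with a mean log2 signal of 14 or more, Slc25a47 had -0.04, with a wide 95% interval of -0.87 to 0.78. Slc25a15 had 0.14 (-0.12 to 0.40), with both MT arrays above both WT arrays and a second probe set at 0.54. The other 3 lay close to 0 on the probe sets used. Slc25a5, the main ATP/ADP carrier of liver, had -0.05 (95% interval -0.29 to 0.20), Slc25a3, the phosphate carrier, 0.04 (-0.21 to 0.28), and Slc25a39, a glutathione carrier, -0.02 (-0.24 to 0.21). On these probe sets the interval, not adjusted for the number of probe sets, excluded differences beyond 0.29 in size. That does not hold for every tested probe set of these genes. A second of Slc25a3 gave 0.49 ± 0.54 (SE) and 1 of Slc25a39 gave 0.23 ± 0.19, while those of Slc25a5 ran from -0.08 to 0.05.

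**Figure D2:**
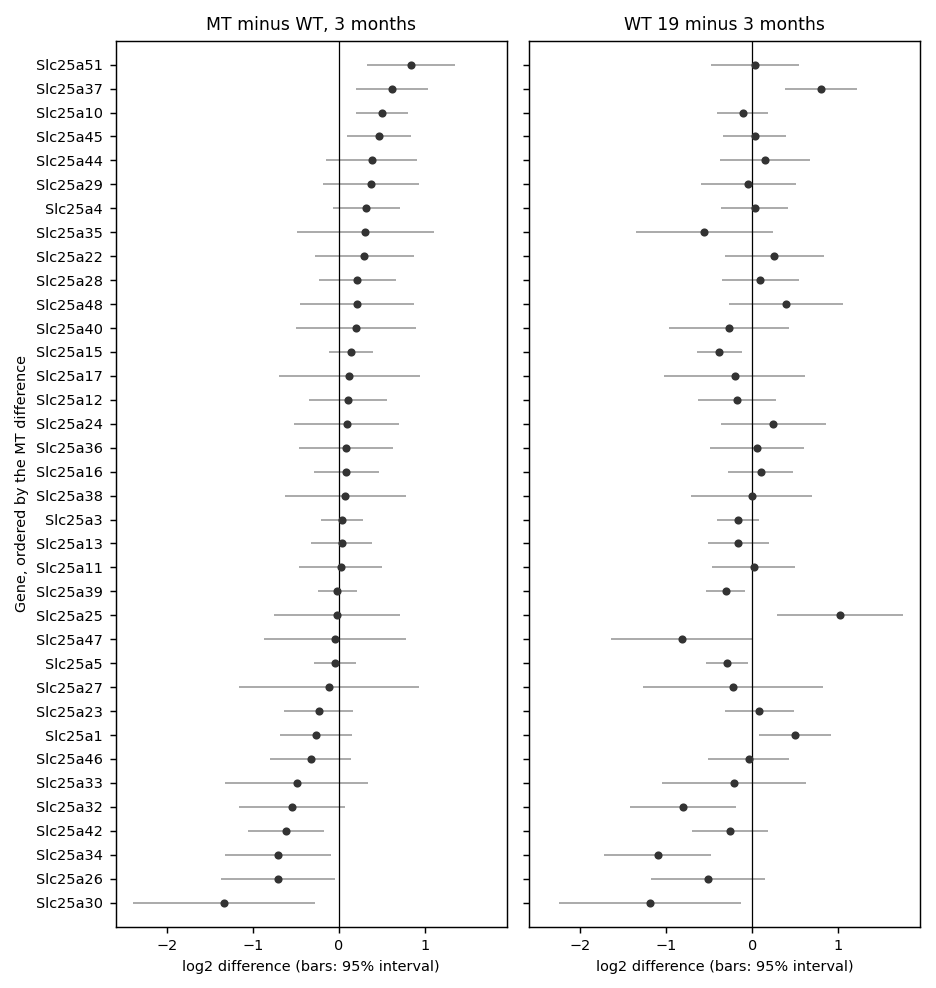
Log2 difference of each tested carrier (points) with its 95% interval from limma (bars), for MT minus WT at 3 months (left) and WT of 19 minus 3 months (right), ordered by the MT difference. Both panels use the same WT 3-month arrays, and Slc25a30 is lowest in both, at -1.33 and -1.19.

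Slc25a30, a carrier of the uncoupling-protein-like branch known from kidney, was chosen for a fuller account after its values were seen. Its difference in MT mice was the most negative of the carriers. It gave 1237 and 1296 in WT mice of 3 months, 466 and 1694 at 12 months, 490 and 624 at 19 months and 576 and 438 in MT mice. Both MT arrays and both 19-month arrays lay below both 3-month WT arrays, while the 12-month arrays lay on either side of them, 3.64-fold apart. The log2 difference was -1.33 ± 0.47 in MT mice (SE, limma adjusted p = 0.259) and -1.19 ± 0.47 at 19 months (limma adjusted p = 0.353). All 3 tested probe sets were below 0, from -1.67 to -1.18 in MT mice and from -1.44 to -0.97 at 19 months. They showed the same split at 12 months.

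The spread of the 12-month pair entered the shared error of the fit. With only MT and WT arrays of 3 months in the fit, Slc25a30 passed (limma adjusted p = 0.0377, beside 0.599% of all probe sets called there). It also passed without 12-month array 1 (adjusted p = 0.0253, 1.13% of all called) or array 2 (0.0263, 1.11%). Over all alternatives tried, its adjusted p in MT mice ran from 0.0253 to 0.613. At 19 months it passed with only those 2 groups in the fit (adjusted p = 0.0348, 0.599% of all called), with a range over alternatives of 0.0348 to 0.765. Cela1, an elastase and listed marker of exocrine pancreas, lay below both 3-month WT arrays on both MT and both 19-month arrays. It gave 4712 and 3993 in WT mice of 3 months and 3961 and 2504 at 12 months. At 19 months it gave 1824 and 1399, and in MT mice 1974 and 1841 (limma adjusted p = 0.0583 in MT mice). Its 12-month array 1 lay above array 2, the reverse of Slc25a30. The other 3 measured markers of that list, Cpa1, Prss2 and Cel, were not bright enough to be tested and reached at most 88.0, and the part of that tissue in the Slc25a30 signal was not tested.

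**Figure D3:**
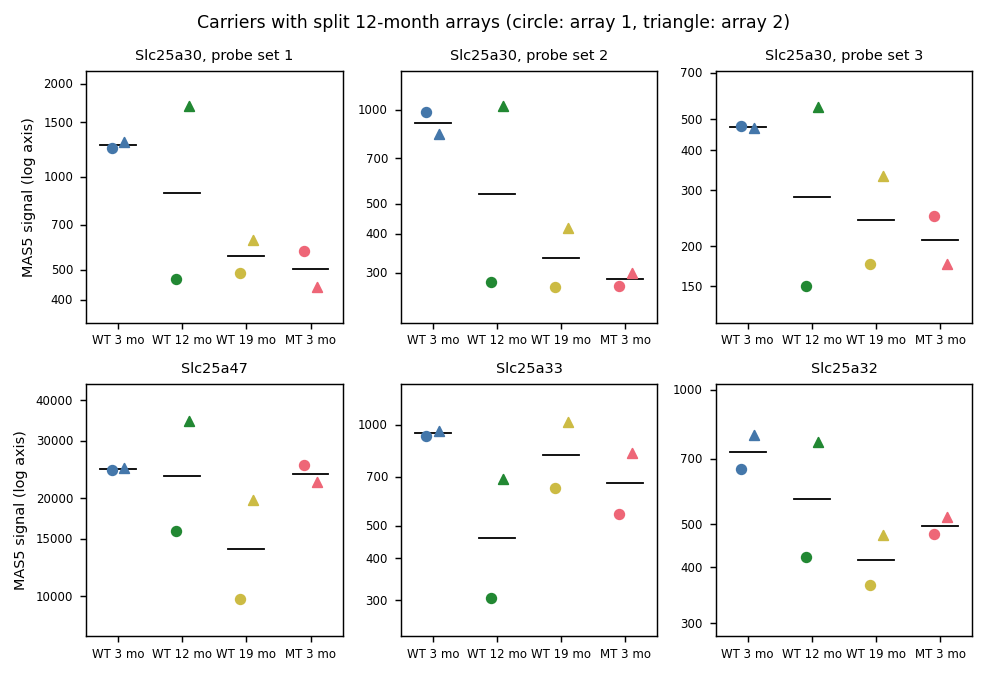
MAS5 signal on a log axis in the 4 groups for the 3 tested probe sets of Slc25a30 and for Slc25a47, Slc25a33 and Slc25a32, where points are single arrays and lines the geometric means of both. In all 6 panels 12-month array 1 lies below array 2, for Slc25a30 at 466 against 1694.

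The comparisons of WT mice of 12 and 19 months with those of 3 months ask which transcripts differ with age. At 12 months no carrier passed by limma (0 of 36, beside 0.0133% of all probe sets). At an unadjusted p under 0.05 there were 5 carriers (13.9%) beside 8.57%. Arrays did not overlap for 13 carriers, 8 above and 5 below, beside 40.1% of all probe sets, (19.3% above and 20.8% below). The median difference was 0.04, beside -0.0034 over all, and 23 of 36 were above 0, beside 49.5% of all. Slc25a33, which carries pyrimidine nucleotides for mitochondrial DNA and RNA, gave 924 and 961 at 3 months and 305 and 690 at 12 months, a log2 difference of -1.04 ± 0.37 (SE, limma adjusted p = 0.493). Without 1 or the other 12-month array that value was -0.45 or -1.63.

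Other carriers of small p at 12 months lay above their 3-month levels. Slc25a22, a glutamate carrier, gave 1761 and 1124 at 3 months and 1766 and 2646 at 12 months (log2 difference 0.62 ± 0.26, SE, limma adjusted p = 0.546). Its groups were separated only by the narrow gap between 1761 and 1766. The value was 0.94 and 0.30 without 3-month array 1 and 2, and 0.91 and 0.33 without 12-month array 1 and 2. Slc25a44, a carrier of branched-chain amino acids, gave 1170 and 1291, then 2124 and 1610 (0.59 ± 0.23, limma adjusted p = 0.528), but its 3 tested probe sets differed in sign, from -0.69 to 0.59. Without 12-month array 1 its value was 0.39.

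Slc25a1 exports citrate, from which the cytosol makes acetyl-CoA for lipid synthesis. It gave 2668 and 2796 at 3 months, 4167 and 3347 at 12 months, 4199 and 3505 at 19 months and 2648 and 1940 in MT mice. Both older WT pairs lay above the 3-month pair. The MT pair lay below it, separated only by the narrow gap between 2648 and 2668. The log2 differences from 3-month WT mice were 0.45 ± 0.19 at 12 months (limma adjusted p = 0.545) and 0.49 ± 0.19 at 19 months (limma adjusted p = 0.342). Without 12-month array 1 the former was 0.29, and without array 2 it was 0.61. Acly, which cleaves the exported citrate, differed by 1.02 at 12 months (limma adjusted p = 0.221) and by -1.05 between 12 and 19 months (limma adjusted p = 0.181). Slc25a45 gave 916 and 884 at 12 months, 0.40 above 3 months (limma adjusted p = 0.544).

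**Figure D4:**
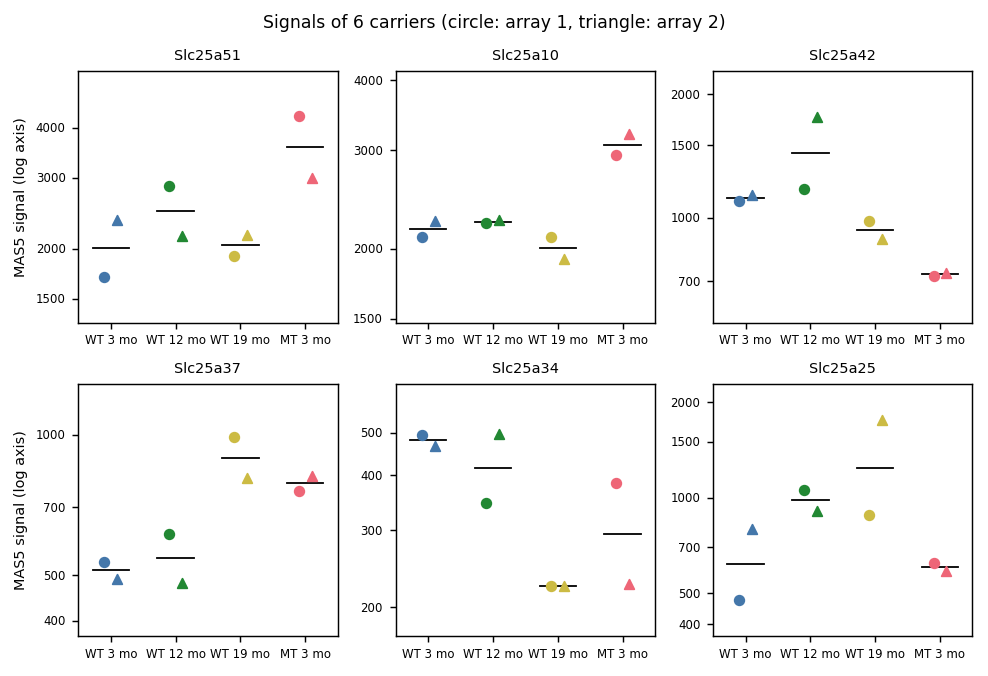
MAS5 signal on a log axis in the 4 groups for Slc25a51, Slc25a10, Slc25a42, Slc25a37, Slc25a34 and Slc25a25, where points are single arrays and lines the geometric means of both. Slc25a37 lies higher on both MT and both 19-month arrays than on the 3-month WT arrays, and Slc25a34 lies at 224 on both 19-month arrays.

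At 19 months against 3 months no carrier passed by limma (0 of 36, beside 0.0355% of all probe sets). At an unadjusted p under 0.05 there were 9 of 36, beside 12.5% of all. Arrays did not overlap for 14 carriers, beside 48.2% of all probe sets. Of these, 4 lay above and 10 below, beside 26.4% and 21.8% of all. The median difference was -0.08, beside 0.02 over all probe sets, and 15 of 36 were above 0, beside 53.0% of all.

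Slc25a37 had the smallest p, as 988 and 806 at 19 months against 533 and 492 at 3 months gave a log2 difference of 0.80 ± 0.19 (SE, limma adjusted p = 0.190). The 12-month arrays, at 614 and 482, spanned the 3-month pair. The erythroid sums given above were higher at 19 months too, and so were the 6 Kupffer cell and macrophage markers, which summed to 11542 and 10287 at 3 months and to 13063 and 22897 at 19 months. All 6 Kupffer markers were above 0 there, with a median of 0.81 and none passing, and their part in the Slc25a37 signal was not tested. In MT mice, where Slc25a37 was also higher, their sums were 7892 and 9627, below both 3-month WT arrays.

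Slc25a25, a calcium-regulated ATP-magnesium/phosphate carrier, gave 477 and 799 at 3 months and 883 and 1758 at 19 months. Its log2 difference was 1.01 ± 0.33 (SE, limma adjusted p = 0.283) and its second tested probe set gave 1.03. Both pairs of arrays were spread, and leaving out 1 array in turn moved the value between 0.52 and 1.51. Slc25a34, without a substrate assigned here, gave 495 and 467 at 3 months, 346 and 497 at 12 months and 224 on both arrays at 19 months. Its log2 difference from 3 months was -1.10 ± 0.27 (limma adjusted p = 0.215). In MT mice it gave 383 and 226, a difference of -0.71 (limma adjusted p = 0.301). Slc25a32, the folate and FAD carrier, gave -0.81 (limma adjusted p = 0.299), and all 3 of its probe sets were below 0, from -1.06 to -0.81.

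The brightest carriers lay below their 3-month levels at 19 months. Slc25a15, which brings ornithine into the matrix for the urea cycle, gave 19099 and 18036 at 3 months, 19579 and 18690 at 12 months and 13656 and 14826 at 19 months. The log2 difference was -0.38 ± 0.11 (SE, limma adjusted p = 0.261), although its second, dimmer probe set gave 0.01 and both averaged -0.19. Slc25a39 gave 43927 and 42065 at 3 months and 35464 and 33806 at 19 months (-0.31 ± 0.10, limma adjusted p = 0.283), and all 4 of its tested probe sets were below 0. After quantile normalization, which sets the signal distribution equal on all arrays, its difference was -0.18 (limma adjusted p = 0.494). Slc25a5 gave -0.29 (limma adjusted p = 0.333), with all 8 of its probe sets below 0, from -0.29 to -0.17.

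These carriers share a range of signal in which other probe sets lay below 0 as well. The 5 carriers with a mean log2 signal of 14 or more (Slc25a3, Slc25a5, Slc25a15, Slc25a39 and Slc25a47) were all below 0 at 19 months, with a median of -0.31. Of all 547 probe sets in that range, 75.1% were below 0, with a median of -0.12. After quantile normalization the median over all of them was 0.01 and that of the 5 carriers -0.22. The Affymetrix 3′ minus 5′ control for Pcx, a sign of RNA length, was 5.86 and 4.77 at 19 months, 4.54 and 5.10 at 12 months, 4.25 and 3.88 at 3 months and 3.88 and 3.93 in MT mice on the log2 scale. The same control for beta-actin was 1.23 and 1.25, 1.26 and 1.31, 1.22 and 1.09, and 0.97 and 1.48 in that order, and for Gapdh -0.39 and -0.44, -0.34 and -0.46, -0.59 and -0.51, and -0.62 and -0.38. On both 19-month arrays the Pcx control lay above all 4 arrays of 3 months. The other 2 controls, at 19 months, lay within the range of those 4 for beta-actin and, for Gapdh, above both WT arrays and between both MT arrays. The part of RNA length in these differences was not tested. The 7 hepatocyte markers were below 0 at 19 months in 6 cases, with a median of -0.21.

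**Figure D5:**
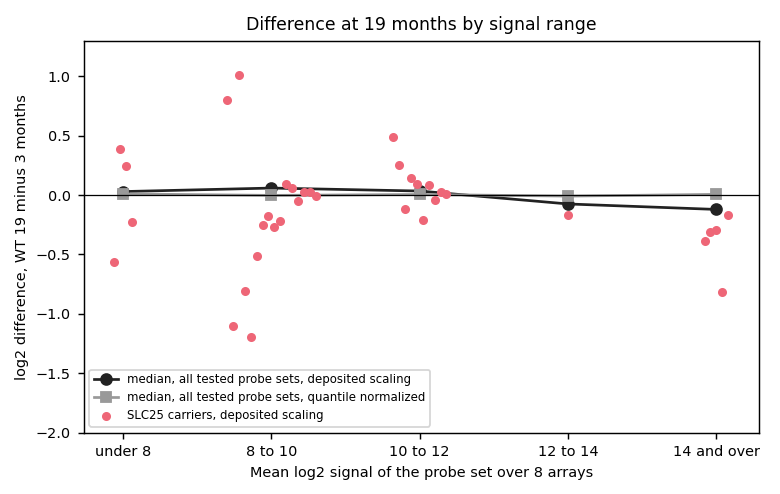
Log2 difference of WT mice of 19 and 3 months (vertical axis) by range of mean log2 signal (horizontal axis), with a red point for each tested carrier and lines for the median of all tested probe sets as deposited (black) and quantile normalized (grey). In the top range the median of all probe sets is -0.12 as deposited and 0.01 after quantile normalization, and the 5 carriers lie below 0.

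Between 12 and 19 months no carrier passed by limma (0 of 36), and neither did any probe set (0.0%), while 2419 probe sets had an unadjusted p under 0.05. At that unadjusted level there were 9 of 36 carriers, beside 10.7% of all. Arrays did not overlap for 18 carriers, 5 above and 13 below, beside 41.3% of all probe sets, 23.8% above and 17.5% below. There were 12 of 36 above 0, beside 54.4% of all. The median difference was -0.24, beside 0.03 over all, and it was -0.10 when each gene was given the median of its tested probe sets. The 5 of smallest p were Slc25a37 at 0.71 ± 0.19 (SE, limma adjusted p = 0.272), Slc25a15 at -0.43 ± 0.11 (0.284), Slc25a34 at -0.89 ± 0.27 (0.322), Slc25a39 at -0.32 ± 0.10 (0.324) and Slc25a42 at -0.62 ± 0.20 (0.329). Slc25a42 gave 1175 and 1756 at 12 months and 983 and 887 at 19 months. Its second probe set gave 0.02 there, and both averaged -0.30. Its value was -0.91 without 12-month array 1 and -0.33 without array 2. After quantile normalization Slc25a39 gave -0.21 between these ages, and with all its tested probe sets averaged -0.19, while Slc25a15 gave -0.20 with both of its probe sets averaged.

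Asked whether a carrier varied among the 4 groups at all, the moderated F test passed 0 of 36, beside 0.431% of all probe sets. At an unadjusted p under 0.05 there were 10 carriers (27.8%) beside 15.3%. The smallest adjusted p by limma were those of Slc25a37 (0.142), Slc25a42 (0.143), Slc25a10 (0.154), Slc25a15 (0.161) and Slc25a1 (0.165). Slc25a30 passed this test without 12-month array 1 or array 2 (0.835% and 0.866% of all probe sets called).

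At a fold over 1.5 and an unadjusted p under 0.05, the methods' t-test passed 3 carriers in MT mice (Slc25a37 above, Slc25a30 and Slc25a42 below), beside 3.95% of all probe sets. At 19 months it passed 3 (Slc25a37 above, Slc25a30 and Slc25a34 below), beside 3.33%. It passed 0 at 12 months, beside 2.23%, and 0 between 12 and 19 months, beside 2.33%. After Benjamini-Hochberg adjustment it passed none in any comparison. The MT and 19-month comparisons share their WT arrays.

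Over the carriers, replicates of a group parted most at 12 months. The median gap between both arrays was 0.34 on the log2 scale over the carriers there, beside 0.26 over all probe sets. In WT mice of 3 and 19 months it was 0.14 and 0.23, beside 0.19 and 0.22 over all probe sets. In MT mice it was 0.24, beside 0.26 over all, as wide as at 12 months. Over 2-fold gaps were found for 3 of 36 carriers at 12 months (8.33%), beside 5.63% of all probe sets. At 19 months they were found for 2 (5.56%, beside 3.48%). In WT mice of 3 months and in MT mice there was 1 each (2.78%), beside 3.13% and 4.87%. The 5 widest were Slc25a30 (1.86), Slc25a33 (1.18), Slc25a47 (1.13), Slc25a32 (0.85) and Slc25a36 (0.69), all lower on array 1. Slc25a47, a carrier found mainly in liver, gave 15821 and 34556 at 12 months, 24398 and 24777 at 3 months and 9807 and 19789 at 19 months.

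Different probe sets of a carrier did not always share a direction. Of 17 carriers with several tested probe sets, all probe sets had the same sign for 9 in the MT comparison, 6 at 12 months, 9 at 19 months and 6 between 12 and 19 months. Slc25a4, the ATP/ADP carrier of heart and muscle, was above 0 in MT mice with all 3 probe sets, its main one at 0.32 (limma adjusted p = 0.471). Slc25a46, an outer membrane protein that shapes mitochondria, was below 0 with both, at -0.33 on the main one (limma adjusted p = 0.539).

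By class, the amino acid carriers had 8 tested members, of which 7 were above 0 in MT mice (median 0.12) and 6 were below 0 at 19 months (median -0.11). Of all probe sets, 52.3% were above 0 in MT mice and 53.0% at 19 months. Among the 7, Slc25a12, Slc25a29 and Slc25a44 had tested probe sets of both signs in MT mice. Of 13 nucleotide and cofactor carriers, 6 were above and 7 below 0 in MT mice (median -0.03), and 7 were above and 6 below at 19 months (median 0.02). The 5 carriers of metal, glutathione and membrane shape had 3 above 0 in MT mice (median 0.19). The 6 carriers without a substrate assigned had medians of 0.05 in MT mice and -0.39 at 19 months.

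None of the partner genes passed the test in any comparison. Of 14 tested genes of the carrier import machinery, 9 were above 0 in MT mice. Tomm20, a receptor of the outer membrane, had a log2 difference of 0.69 ± 0.13 (SE, limma adjusted p = 0.0613), and Timm10, a chaperone that hands carriers to TIM22, 0.51 ± 0.13 (limma adjusted p = 0.132). At 19 months 9 of the 14 were below 0 and 5 above, beside 53.0% of all probe sets above 0. The 2 import genes of smallest p there had opposite signs. Tomm70a, a receptor for carriers, had -0.41 (limma adjusted p = 0.292) and Timm29 had 0.51 (limma adjusted p = 0.323). Of 13 tested mitochondrial carriers and pores with symbols other than Slc25a, 11 were below 0 at 19 months. Among them Mpc1, a subunit of the pyruvate carrier, had -0.27 (limma adjusted p = 0.361). Mpc1 had a mean log2 signal of 14.7, in the range of 14 and over where 75.1% of all probe sets were below 0 at 19 months. In MT mice Mcu, the pore of the calcium uniporter, had -0.52 (limma adjusted p = 0.237).

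Enzymes that work beside the carriers were read in the same way. Of 10 tested enzymes of the malate-aspartate and citrate shuttles, 8 were above 0 at 12 months and 8 below 0 between 12 and 19 months. Got1, the cytosolic aspartate aminotransferase, had -0.85 at 19 months against 3 months (limma adjusted p = 0.262), and Gpd2, the mitochondrial glycerol phosphate dehydrogenase, 0.68 in MT mice (limma adjusted p = 0.183). Of 8 tested urea cycle partners of Slc25a15, 6 were below 0 at 19 months, with Cps1, which makes carbamoyl phosphate in the matrix, at -0.32 (limma adjusted p = 0.273) and Arg1, arginase, at -0.37 (limma adjusted p = 0.355). Cps1 is also in the hepatocyte marker list. Cps1 and Arg1 had mean log2 signals of 15.6 and 15.3. In that range, of 14 and over, 75.1% of all probe sets were below 0 at 19 months as deposited.

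Of 10 tested heme, iron-sulfur and glutathione partners, 4 were above 0 in MT mice and 7 at 19 months. Alas1, the first enzyme of heme synthesis in liver, had 1.57 ± 0.41 in MT mice (SE, limma adjusted p = 0.129). Of 12 tested cofactor partners, 3 were above 0 in MT mice and 4 at 19 months. Mat1a, which makes S-adenosylmethionine in liver, had 0.44 in MT mice (limma adjusted p = 0.102), and Shmt2, a matrix enzyme of folate metabolism, -0.50 at 19 months (limma adjusted p = 0.273).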

How the data were processed

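The authors deposited 1 table of MAS5 signal intensity, linear and already scaled, for the 8 arrays. Averaged between the 2nd and the 98th percentile it came to 500.004 on each array, and array medians ran from 74.7 to 83.1. Which version of MAS5 made it is not stated, and neither detection calls nor scanner files were used. Of 45101 probe sets, 64 controls were left out. Of the other 45037, 34945 carried 1 gene symbol, 932 several and 9160 none, and only the first were named. RefSeq held the Entrez IDs of 34741 of them and changed 0 symbols.

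Signals under 1 were set to 1 (1 value among the carriers) and put on the log2 scale. The brighter 50% of probe sets by mean log2 signal (22519, at least 6.18) entered limma 3.58.1 (R 4.3.3), where lmFit and eBayes with a variance trend fitted the 4 groups together on 4 residual and 5.37 prior degrees of freedom. Each comparison was two-sided and adjusted by Benjamini-Hochberg over all its probe sets, and an adjusted p under 0.05 was a call. Array numbers were not used as a block, since deviations of equally numbered arrays correlated at -0.0331 to 0.141. Python 3.11.15 with pandas 2.3.3, numpy 2.4.6 and matplotlib 3.10.9 handled tables and plots.

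Members, gene lists and marker lists were chosen with earlier results of these data known. Named with full statistics were the 5 tested members of smallest unadjusted p in each comparison, and from partner lists at most 2 genes of smallest p in a comparison. Slc25a30, and the array gaps, motifs and bright carriers described, were chosen after their values were seen. The alternatives changed the normalization, the transform, the filter, the variance trend, the groups fitted, the test, the replicate block, the probe sets used and the arrays left out. The number of arrays limits the precision.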

Additional observations from a re-analysis of the deposited data

How the results depend on the processing

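The 27 values of named carriers were recomputed under every alternative, which gave 454 values. Of these, 444 kept their direction and side of the threshold, 10 kept their direction and newly passed, and none turned. None of the 27 had passed before, so no call could be lost. Alternatives that changed only the filter, the error estimate or the test could not turn a direction. The methods' t-test after Benjamini-Hochberg adjustment called 0 of all 22519 probe sets in each comparison, so no carrier could pass by it. The count of carriers passing was 0 in every comparison and became 1 with only the groups compared in the fit (Slc25a30, in MT mice and at 19 months). It became 3 by the methods' t-test with a fold over 1.5 and an unadjusted p in MT mice and 3 at 19 months. Leaving out each array in turn gave 0 to 1 in MT mice and in the test over all 4 groups, in both cases Slc25a30 without 12-month array 1 or array 2, and 0 to 0 in the other comparisons. For Slc25a30 the shared error without the wide 12-month pair is smaller by construction. The replicate block passed 0 carriers in every comparison. Over all probe sets, 116 were called in MT mice, 3 at 12 months, 8 at 19 months, 0 between those ages and 97 among the 4 groups. Without a variance trend these were 9, 0, 1, 0 and 3, and with only the groups compared 135, 12, 135 and 5. The block called 25 at 19 months, the upper 25% of signal 177 in MT mice and 3 at 19 months, and no filter 3 between 12 and 19 months. Leaving out an array gave 13 (WT 3-month array 2) to 255 (12-month array 1) in MT mice. The median of the carriers in MT mice, 0.08, was -0.03 without WT 3-month array 2 and -0.03 without MT array 1, and that between 12 and 19 months was -0.10 with all tested probe sets of a gene. With a median SE of 0.23, a missed threshold does not show that a carrier did not differ.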
